A study of Mus musculus with 2 samples.

Results

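Glucose enters a cell through transporters and is split to pyruvate by the enzymes of glycolysis. Branches from the same sugar phosphates lead to NADPH and ribose (the pentose phosphate pathway) and to glycogen, the storage form. In fat cells glucose also supplies the glycerol backbone of triglyceride, insulin controls its entry through the transporter encoded by Slc2a4, and the pentose phosphate pathway supplies NADPH for fatty acid synthesis. The genes described here are 39 genes of glucose entry, glycolysis, lactate handling, the pentose phosphate branch and glycogen metabolism, chosen by name from a list. All 39 symbols were found, each in 1 row of the 23282 rows deposited.

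RNA was measured in 3T3-L1 cells, a line of mouse embryonic fibroblasts that becomes fat-like under an adipogenic cocktail. Of 2 libraries, 1 came from cells given a control siRNA and 1 from cells given an siRNA against Pink1, which encodes a kinase that flags failing mitochondria for autophagy. The labels call the cells murine adipocytes, and the title of the series concerns age-related bone loss. Libraries were made from 500 ng of total RNA with a QuantSeq kit, which reads tags near the 3′ ends of polyadenylated transcripts. Neither the stage of differentiation nor the interval between transfection and harvest is stated in the labels. With 1 library per group, differences cannot be checked against replicates, and p-values were left out. Counting intervals cover counting error only. Widened intervals, defined below, also draw on the spread among genes of like abundance. Neither kind measures the spread between replicate cultures.

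The control library held 13803174 counts and the Pink1 siRNA library 14214768. Levels are given as CPM, read counts scaled to a common library size by effective library sizes from the trimmed mean of M values. Pink1 itself was at 36.5 CPM in the control library and 25.1 CPM in the Pink1 siRNA library. The ratio was 0.687 (95% counting interval 0.598 to 0.788). Its widened interval, defined below, ran from 0.444 to 1.05 and so included 1. Among 583 genes of like abundance, 24 were at or below this ratio. Of 12 adipocyte markers, 11 had at least 40 counts over both libraries, and Lep had none. The 12 summed to 2660 CPM in the control library and 2870 CPM in the Pink1 siRNA library. All 7 preadipocyte and fibroblast markers were measured, at 18606 and 20816 CPM in sum, most of it from Dlk1, Col3a1 and Col1a1, so both libraries held RNA of both kinds. All 7 of these ratios were above 1. For 4 (Dlk1, Col1a1, Thy1, Pi16) the widened interval was too, beside 2.08% of all measured genes. Dlk1 and Col1a1 were not unusual for their level, with 194 and 155 of 583 genes as high or higher. The median log2 ratio of those 583 genes was 0.088. Thy1 had a ratio of 1.47 (widened 1.06 to 2.05) and Pi16 one of 3.39 (widened 1.03 to 15.5). Of the adipocyte markers 6 ratios were above 1 and 5 below. Plin1, a coat protein of lipid droplets, had a ratio of 0.608 (widened 0.365 to 0.994), and Retn, which encodes resistin, had 1.49 (widened 0.981 to 2.30). Of the 6 osteoblast and 5 skeletal muscle markers none reached 40 counts, and 1 of 5 macrophage markers did. The part of these markers in the ratios below was not tested, and in such bulk RNA fewer cells of a type cannot be told apart from less RNA per cell.

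The 39 genes took 36265 counts of the control library (0.263%, exact binomial 95% interval 0.260 to 0.265%) and 36993 of the Pink1 siRNA library (0.260%, 0.258 to 0.263%). On these raw totals the intervals overlap. Without the row of precursor ribosomal RNA the shares were 0.294% and 0.289%. With the scaling used for the ratios the summed ratio was 1.02 (1.005 to 1.035). The side of 1 on which the sum lay thus depended on the scaling. Over all rows that scaling gave a summed ratio of 1.03 (1.029 to 1.031). Intervals of sums cover counting error only. Of the 39 genes, 37 had at least 40 counts in sum and are called measured. The others were Aldoc, the brain-type aldolase, with 5 and 0 counts in the control and Pink1 siRNA libraries, and Eno1, the ubiquitous enolase, with 0 in both. For Aldoc, 0 counts at this depth leave room for a level of up to 3 counts, which is 0.214 CPM. No such limit holds for Eno1, whose 3′ tags are shared with a copy.

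**Figure D1:**
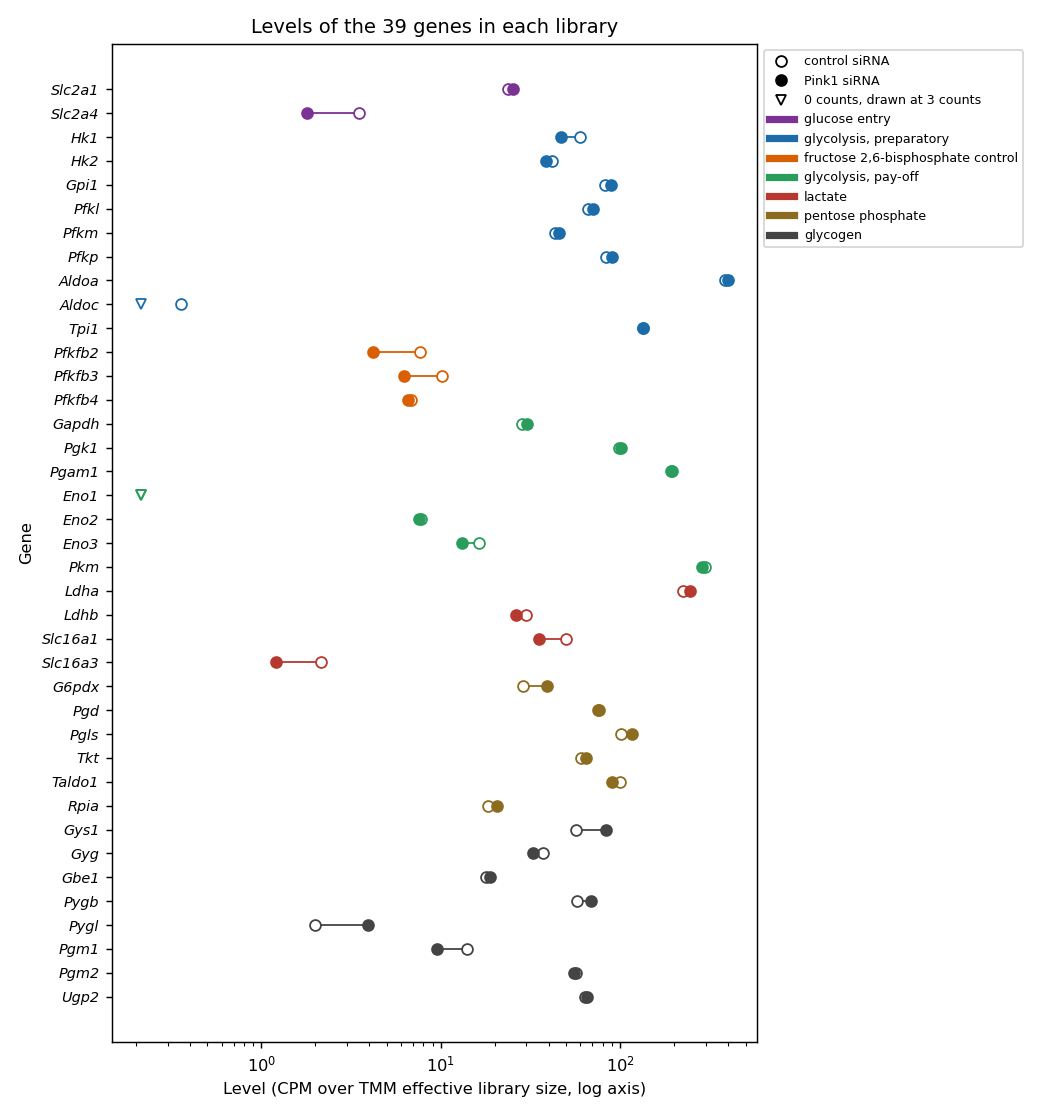
Levels of the 39 genes in the 2 libraries, in CPM on a log axis, grouped by role. Open circles are the control siRNA library and filled circles the Pink1 siRNA library, 1 value each, joined by a line; triangles mark 0 counts and are drawn at the level of 3 counts, which is no limit for Eno1. Most pairs lie on top of each other, and the wider pairs are mostly at the low end, such as Pfkfb2 at 7.64 and 4.21 CPM.

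Before the values, 5 promoters are shown, because the genes behind them had the ratios farthest from their peers (Gys1, G6pdx, Slc16a1, Pfkfb2) or hold the most E-boxes in the set (Ldha). Each is the 250 bases before an annotated transcription start, 5′ to 3′ on the gene's strand, from RefSeq (GRCm38.p6, the assembly of mm10), and capitals mark ACGTG or its complement CACGT, alone or within the E-box CACGTG. Pfkfb2 has 3 listed starts and Ldha 2, of which the start with the E-box is shown.
Gys1 (chr7:45434589-45434838, plus strand): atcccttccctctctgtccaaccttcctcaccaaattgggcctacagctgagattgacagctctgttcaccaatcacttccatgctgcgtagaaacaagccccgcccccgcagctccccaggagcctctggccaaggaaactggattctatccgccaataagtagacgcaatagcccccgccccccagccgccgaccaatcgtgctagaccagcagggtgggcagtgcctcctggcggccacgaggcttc
G6pdx (chrX:74428881-74429130, minus strand): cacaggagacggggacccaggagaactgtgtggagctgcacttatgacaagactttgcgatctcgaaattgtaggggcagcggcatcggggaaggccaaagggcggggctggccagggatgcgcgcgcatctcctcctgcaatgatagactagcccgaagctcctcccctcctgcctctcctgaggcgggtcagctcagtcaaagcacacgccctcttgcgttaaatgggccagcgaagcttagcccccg
Slc16a1 (chr3:104638414-104638663, plus strand): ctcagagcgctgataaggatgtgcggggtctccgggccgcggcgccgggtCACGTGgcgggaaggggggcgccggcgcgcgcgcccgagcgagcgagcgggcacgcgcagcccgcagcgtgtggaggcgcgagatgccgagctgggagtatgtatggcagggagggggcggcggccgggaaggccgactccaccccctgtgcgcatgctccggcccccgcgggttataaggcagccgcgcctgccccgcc
Pfkfb2 (chr1:130715822-130716071, minus strand): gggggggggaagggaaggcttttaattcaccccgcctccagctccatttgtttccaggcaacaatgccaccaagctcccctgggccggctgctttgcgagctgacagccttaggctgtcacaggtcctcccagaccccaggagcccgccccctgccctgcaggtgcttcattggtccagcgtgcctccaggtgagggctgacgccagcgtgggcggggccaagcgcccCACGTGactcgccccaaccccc
Ldha (chr7:46845554-46845803, plus strand): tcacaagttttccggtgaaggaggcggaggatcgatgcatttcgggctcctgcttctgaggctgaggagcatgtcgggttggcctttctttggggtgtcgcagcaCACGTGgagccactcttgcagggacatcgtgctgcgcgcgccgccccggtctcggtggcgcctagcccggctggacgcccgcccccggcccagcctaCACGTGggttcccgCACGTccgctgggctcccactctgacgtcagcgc
Gys1 and G6pdx have no capitals in this window, Slc16a1 and Pfkfb2 have 1 E-box each, and Ldha has 2 E-boxes and a separate CACGT.

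Over all members with an entry, 52 promoters of 36 genes were searched on both strands. Windows of 1 gene can overlap, as for Aldoa, where 1 CACGT was counted more than once. For 44 of the 52, bases after the start matched a transcript of the gene. The core ACGTG is part of the site bound by hypoxia-inducible factors and lies within every CACGTG. It was in 19 of the 52 (36.5%), against 16.6% of all 32851 promoters of the same length. By gene it was in 15 of 36, and no share by gene was computed over all promoters. The full E-box CACGTG, a site that MYC, USF and MLX complexes can bind, was in 5 of 52 (9.62%), against 6.02%. Its 5 genes were Ldha, Pfkfb2, Pfkfb3, Pfkm and Slc16a1. The sequence GCGTG was in 59.6% of the members' promoters against 28.2% of all, GGGCGG in 57.7% against 32.7%, and TATAAA in 1.92% against 12.4%. The members' promoters were also richer in G and C, with a median of 60.0% against 52.4%, and the motif shares were not adjusted for that. A match is a run of letters in this window and was not tied to binding of any factor.

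No member passed the rule of size, which asks for a ratio of at least 2 either way with a counting interval that leaves out 1. Among all 11660 measured genes 4.02% passed that rule, 1.63% higher and 2.39% lower, so 0 of 37 in each direction is near the background. The median log2 ratio of the 37 genes was -0.0007, beside 0.0047 over all measured genes, with 18 ratios above 1 and 19 below. Ratios were within 1.5-fold for 32 of the 37 (86.5%), beside 87.0% of all measured genes. At 1.5-fold with the counting interval, 1 member was higher (Pygl) and 3 lower (Slc2a4, Pfkfb2, Pfkfb3), beside 5.43% and 6.64% of all measured genes. At a ratio 25% above 1 or its inverse, Gys1 and G6pdx joined the higher member and Hk1, Slc16a1 and Pgm1 the lower ones, making 3 and 6, beside 13.7% and 14.3%. A counting interval above 1 was found for 7 members and below 1 for 8, beside 26.2% and 24.9% of all measured genes. The ratios of the 2 libraries differ by more than counting error for genes of every level. A widened interval was therefore used beside the first: both counts are divided by the mean excess of the squared difference over its binomial variance, taken over the 583 genes in the same of 20 bands of level. It lay above 1 for 1 member, Gys1, and below 1 for none, beside 2.08% and 1.93% of all measured genes.

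**Figure D2:**
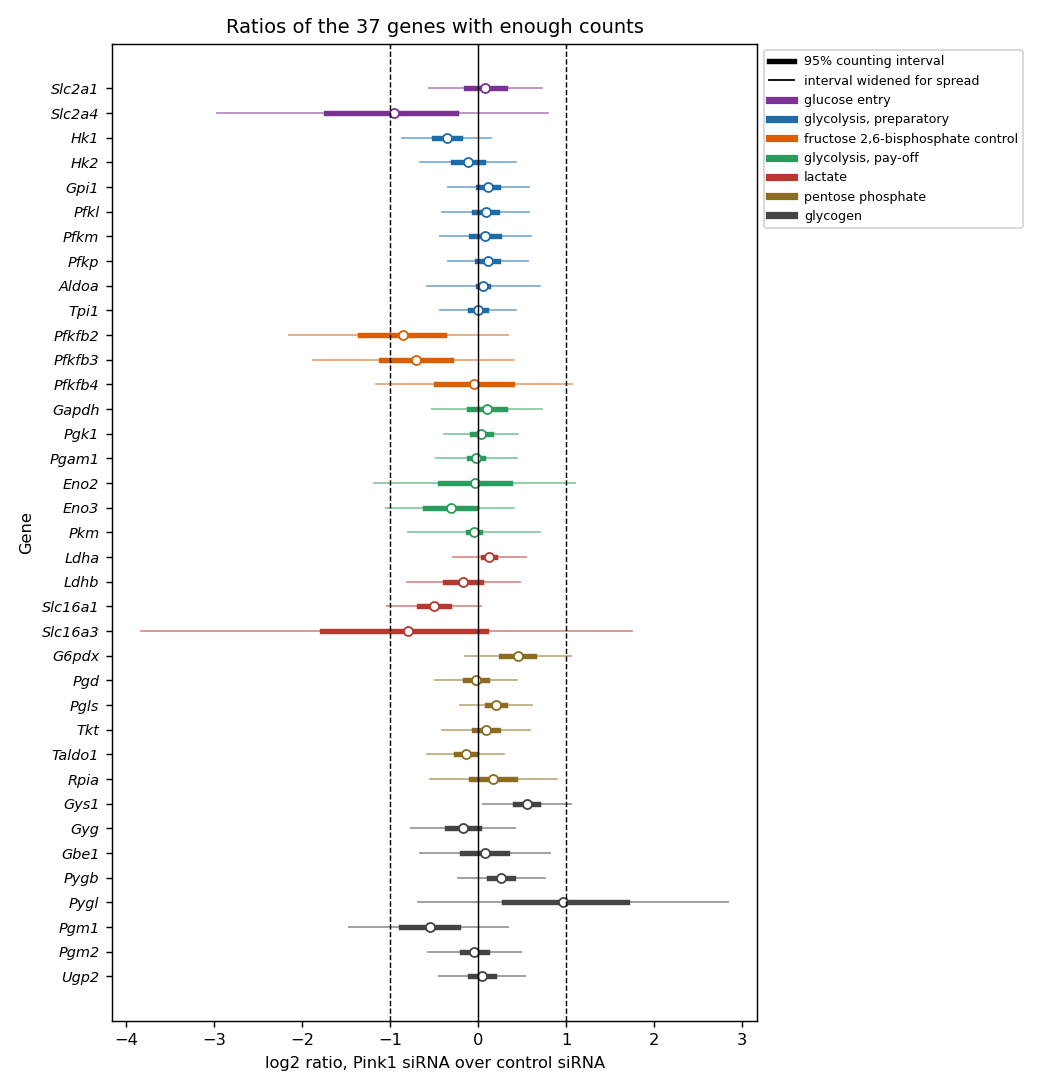
The log2 ratio of the Pink1 siRNA library over the control siRNA library for the 37 measured genes, grouped by role. Circles are the single ratios, thick bars the 95% counting intervals, thin bars the widened intervals and dashed lines the ratio of 2 either way. Every circle lies between the dashed lines, and Gys1 has the only thin bar that lies wholly above 0.

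How far a ratio lay from 1 followed the number of counts. Of the 21 members with at least 1000 counts in sum, all 21 were within 1.5-fold, as were 98.1% of all measured genes of that depth. Among the 11 members with at least 200 and under 1000 counts, 10 were within 1.5-fold, beside 88.5% of all measured genes of that depth, and Pfkfb3 was the exception. Of the 5 with at least 40 and under 200 counts, 1 was within 1.5-fold, beside 58.5% of all measured genes of that depth. Set against the genes in its own band of level, a member was inside the interquartile range in 24 of 37 cases, above it in 5 and below it in 8. Gys1 and G6pdx were in the highest 5% of their bands, and Slc16a1 and Pfkfb2 in the lowest 5%. That is 2 of 37 members at each end, near the 5% of all measured genes that lie there by definition.

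**Figure D3:**
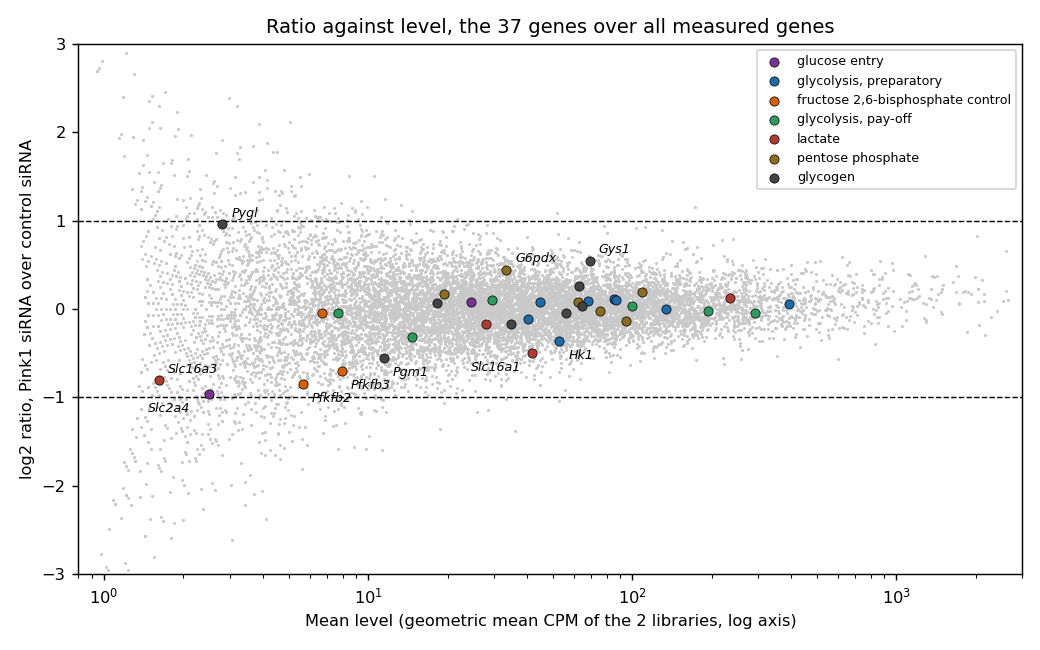
The log2 ratio (vertical axis) against the geometric mean level in CPM (horizontal log axis) for all 11660 measured genes in grey and the 37 members in colour by role; members farther from 0 are named, and 10 genes lie beyond the drawn ratios and 14 beyond the drawn levels. The grey cloud narrows toward high levels, and the members at high level lie near 0 while Slc2a4, Slc16a3 and Pygl lie in its wide low end.

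Of the 2 listed transporter genes, the insulin-independent one had the more counts in both libraries. Slc2a1, which encodes the basal transporter GLUT1, had 334 counts in the control library and 353 in the Pink1 siRNA library, a ratio of 1.06 (0.908 to 1.23). Slc2a4, which encodes the insulin-responsive GLUT4 of fat and muscle, had 49 and 25 counts. Its ratio of 0.515 (0.302 to 0.842) was just short of the rule, and its widened interval was 0.128 to 1.73. In its band of level, 68 of 583 genes had a ratio as low or lower. Of the counts of the 2 transporter genes, Slc2a4 took 12.8% (exact interval 9.62 to 16.6%) in the control library and 6.61% (4.33 to 9.61%) in the Pink1 siRNA library. Other genes of the GLUT family, from the list of further isoforms, were then counted too, measured or not, among them Slc2a10 at 582 and 669 counts. With them Slc2a4 took 3.99% (2.96 to 5.24%) and 1.79% (1.16 to 2.62%), and Slc2a1 27.2% and 25.2%.

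The listed hexokinases, which trap glucose as its phosphate, were both below 1. Hk1, the housekeeping form, had 841 and 656 counts and a ratio of 0.780 (0.703 to 0.865; widened 0.547 to 1.11). It was low for its level, with 31 of 583 genes as low or lower, but it shares 157 exonic bases with the antisense gene Hk1os (54 and 70 counts). Hk2, the insulin-regulated form of muscle and fat, had 585 and 540 counts and a ratio of 0.923 (0.820 to 1.04). Hk1 made up 59.0% of their counts (56.4 to 61.5%) in the control library and 54.8% (52.0 to 57.7%) in the Pink1 siRNA library, and these intervals overlap.

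Between hexokinase and the triose phosphates the values were close to each other in both libraries. Gpi1, the isomerase that makes fructose 6-phosphate, had 1151 and 1244 counts (ratio 1.08, 0.997 to 1.17). Phosphofructokinase, the committed step, is a tetramer of liver, muscle and platelet-type subunits. Pfkl, the liver type, had 928 and 985 counts (ratio 1.06, 0.969 to 1.16). Pfkm, the muscle type, had 609 and 643 (1.06, 0.944 to 1.18). Pfkp, the platelet type, had 1172 and 1262 (1.08, 0.994 to 1.17). The subunit mix was alike in both libraries within counting error. Pfkp took 43.3% and 43.7% of the counts, Pfkl 34.3% and 34.1%, and Pfkm 22.5% and 22.2%. Pfkp shares 748 exonic bases with Pitrm1 on the opposite strand (1011 and 961 counts), and whether strand was used in counting is not given in the sources used here. Aldoa, the aldolase of most tissues, had 5373 and 5588 counts (1.04, 1.0017 to 1.08). Tpi1, which interconverts the triose phosphates, had 1885 and 1884 (0.9996, 0.937 to 1.07). Together with Hk1, Hk2 and Aldoc, these genes make up the 9 listed preparatory genes. The 9 summed to 896 and 914 CPM (ratio 1.02, 0.995 to 1.05).

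The bifunctional PFKFB enzymes set the level of fructose 2,6-bisphosphate, the strongest activator of phosphofructokinase, and the values of 2 of the 3 genes were below 1 beyond counting error. Pfkfb2, the form of heart and kidney, had 107 and 59 counts. The ratio was 0.554 (0.394 to 0.765), and 27 of 583 genes of its level were as low or lower. Pfkfb3, the inducible form with high kinase activity, had 142 and 87 counts, a ratio of 0.614 (0.464 to 0.806) with 52 of 583 genes as low or lower. Pfkfb4, a hypoxia-induced form, had 95 and 92 counts (0.969, 0.719 to 1.30). Of the 3 genes, Pfkfb4 alone had a counting interval that included 1. Widened intervals included 1 for all 3, at 0.226 to 1.27 for Pfkfb2 and 0.272 to 1.32 for Pfkfb3. Pfkfb2 shares 154 exonic bases with Yod1 on the opposite strand, which had 85 and 84 counts. The counts of the 3 PFKFB genes summed to 344 and 238 (ratio 0.692, 0.584 to 0.819). The share of Pfkfb4 was 27.6% (23.0 to 32.7%) in the control library and 38.7% (32.4 to 45.2%) in the Pink1 siRNA library. The intervals of these shares overlap slightly.

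From glyceraldehyde 3-phosphate to pyruvate, where glycolysis yields ATP, all 6 measured genes were within 1.5-fold. Pgk1, a kinase that makes ATP, had 1388 and 1419 counts (1.02, 0.949 to 1.10). Pgam1, the mutase, had 2738 and 2695 (0.984, 0.933 to 1.04). Pkm, the pyruvate kinase of most tissues, had 4160 and 4023 (0.967, 0.926 to 1.01). The intervals of these 3 genes all included 1. Eno2, the neuronal enolase, had 109 and 106 counts (0.973, 0.737 to 1.28). Eno3, the muscle enolase, had 229 and 184 (0.804, 0.658 to 0.980; widened 0.482 to 1.33). The 7 genes of this stretch summed to 644 and 632 CPM (0.981, 0.953 to 1.01). That sum does not include the rows named Eno1b, a copy of Eno1.

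Gapdh and Eno1 stood apart in how their tags could be placed. Gapdh, among the most abundant transcripts of most cells, had 398 and 426 counts (28.4 and 30.4 CPM; ratio 1.07, 0.932 to 1.23). In the last 300 bases of its main transcript (GENCODE M21), 208 of 251 windows of 50 bases (82.9%) also occur exactly in transcripts of 99 other genes, 96 of them annotated as pseudogenes. Eno1 (chromosome 4, 150236708 to 150248879, mm10) shared 226 of 251 windows (90.0%) with 1 other gene, Eno1b, an intronless copy. The tables hold 2 rows with the symbol Eno1b, at 857 and 921 counts (ratio 1.07) and at 842 and 942 counts (1.12). Only 1.92% of the 10725 measured genes whose ends were checked shared at least 50% of their windows. Of 36 members checked, 32 shared none, G6pdx shared 2 windows with G6pd2, and Ldhb shared 11 with a single pseudogene. Aldoa, Pgm1 and Pgm2 were not checked, so whether their tags are shared is not known here. Levels of Gapdh and Eno1 in these tables are therefore uncertain as levels of their transcripts, and the labels do not say how multiply placed reads were handled.

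Lactate dehydrogenase counts came mostly from the A subunit gene. Ldha, whose enzyme favours the making of lactate, had 3153 and 3434 counts (1.09, 1.04 to 1.14; widened 0.817 to 1.45). Ldhb, whose subunit favours the use of lactate, had 416 and 370 (0.890, 0.771 to 1.03). Ldha took 88.3% (87.2 to 89.4%) and 90.3% (89.3 to 91.2%) of the pair's counts. Dividing by transcript length gave 84.8% and 87.3%, so the order of the 2 genes did not depend on length.

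The listed proton-coupled lactate carriers both had ratios below 1. Slc16a1, which encodes MCT1, had 697 and 493 counts, or 49.8 and 35.2 CPM. The ratio of 0.708 had a counting interval of 0.629 to 0.795 and a widened interval of 0.486 to 1.02, and 22 of 583 genes of its level were as low or lower. Slc16a3, which encodes MCT4, the export form of strongly glycolytic cells, had 30 and 17 counts (0.574, 0.293 to 1.06). Of the counts of the pair, Slc16a1 took 95.9% and 96.7%. The 4 lactate genes summed to 307 and 308 CPM, because Ldha held most of that sum.

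In the pentose phosphate branch, the first enzyme had the largest ratio. G6pdx, the X-linked glucose 6-phosphate dehydrogenase that makes the first NADPH and controls flux into the branch, had 400 and 545 counts, or 28.6 and 38.9 CPM. Its ratio was 1.36 (1.20 to 1.55; widened 0.898 to 2.08), and 28 of 583 genes of its level were as high or higher. G6pdx shares 418 exonic bases with Ikbkg on the opposite strand, which had 231 and 294 counts. Of the 6 listed genes of the branch, G6pdx alone was in the outer 5% of its band of level, and Rpe, the epimerase from the list of further isoforms, was low for its level, at 408 and 270 counts with 12 of 583 genes as low or lower. The lactonase gene Pgls had 1418 and 1626 counts (1.15, 1.07 to 1.23), but it shares 776 exonic bases with Fam129c on the same strand (93 and 95 counts). Pgd, which makes the second NADPH, had 1068 and 1050 (0.983, 0.902 to 1.07). The non-oxidative enzymes, which rearrange pentoses and return carbon to glycolysis, were on both sides of 1. Rpia, the ribose isomerase, had 257 and 289 counts (1.12, 0.947 to 1.34). Transketolase, from Tkt, had 850 and 901 (1.06, 0.964 to 1.17). Transaldolase, from Taldo1, had 1397 and 1267 (0.907, 0.840 to 0.979). The 6 genes summed to 385 and 405 CPM (1.05, 1.02 to 1.09), with 4 ratios above 1 and 2 below. That counting interval includes 1.03, the summed ratio over all rows.

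Among the glycogen genes, the synthase lay farthest from genes of its own level. Gys1, the glycogen synthase of muscle, fat and most other tissues (chromosome 7, 45434839 to 45456617, mm10), had 799 and 1169 counts, or 57.0 and 83.5 CPM. The ratio was 1.46 (1.34 to 1.60), the widened interval was 1.04 to 2.07, and 12 of 583 genes of its level were as high or higher. It shares 310 exonic bases with Ruvbl2 on the opposite strand, which had 116 and 142 counts, and the part of that overlap in the Gys1 ratio was not tested. Gyg, the primer glycogenin, had 518 and 459 counts (0.886, 0.780 to 1.01). Gbe1, the branching enzyme, had 249 and 262 (1.05, 0.881 to 1.26). Ugp2, which makes the UDP-glucose that the synthase uses, had 890 and 914 (1.03, 0.935 to 1.13).

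Both listed phosphorylase genes, whose enzymes release glucose 1-phosphate from glycogen, had ratios above 1. Pygm, from the list of further isoforms, had 17 and 16 counts and was not measured. Pygb, the brain form, had 806 and 966 counts (1.20, 1.09 to 1.32; widened 0.851 to 1.69). Pygl, the liver form, had 28 and 55 counts, a ratio of 1.95 (1.22 to 3.22; widened 0.623 to 7.14), just short of the rule, and 41 of 583 genes of its level were as high or higher. Pygb took 96.6% (95.2 to 97.8%) and 94.6% (93.0 to 95.9%) of the pair's counts. The phosphoglucomutases, which join glycogen to glycolysis, did not have like ratios. The row named Pgm1 had 195 and 133 counts (0.683, 0.543 to 0.855; widened 0.360 to 1.26). The row named Pgm2 had 796 and 772 (0.970, 0.877 to 1.07). The RefSeq table lists each of these symbols as a synonym of the other gene, so which gene each row stands for could not be settled here. The 8 glycogen genes summed to 306 and 338 CPM (1.10, 1.06 to 1.15), with 5 ratios above 1 and 3 below. The summed ratio over all rows was 1.03, and no widened interval was computed for sums.

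**Figure D4:**
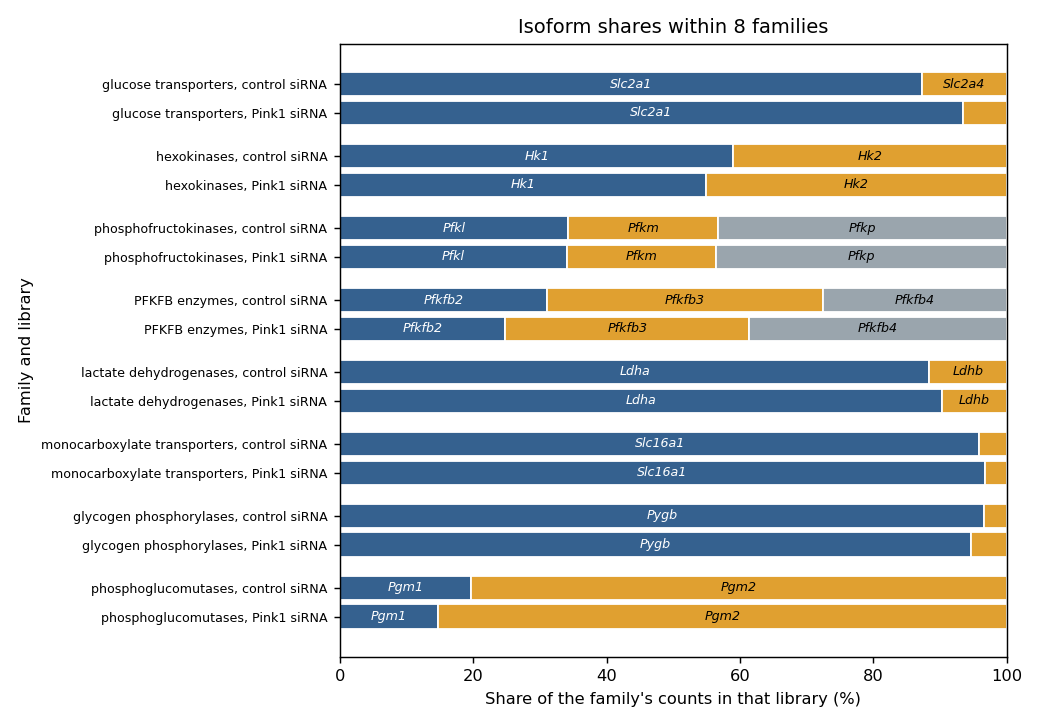
Shares of the counts of 8 enzyme or transporter families taken by each gene, with 1 bar per library. They are in percent of the counts of the family's listed members only. With other isoforms counted too, Pgm1 took 10.7% in the control library and 7.79% in the Pink1 siRNA library, and Slc2a1 27.2% and 25.2%. The phosphofructokinase bars are nearly the same in both libraries, while Slc2a4 and Pgm1 take smaller shares and Pfkfb4 a larger share in the Pink1 siRNA library; unlabelled end segments are Slc2a4, Slc16a3 and Pygl.

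Around the 39 genes, 4 further lists were read. Of 32 other isoforms of the same families, 13 were measured, with a median log2 ratio of 0.20. By the rule 2 were higher and none lower, beside 1.63% and 2.39% of all measured genes. Both had under 200 counts in sum, a depth at which 58.5% of all measured genes were within 1.5-fold. Slc2a12, a hexose transporter gene of the GLUT family, had 24 and 87 counts (ratio 3.57, 2.29 to 5.96; widened 1.22 to 13.7). Pfkfb1, the liver PFKFB form, had 23 and 49 (2.11, 1.27 to 3.66; widened 0.610 to 9.01). Slc2a9, a urate transporter, had a ratio of 1.58 and Rpe 0.662 (0.565 to 0.774; widened 0.417 to 1.04), neither past the rule. With Pfkfb1 in the family, Pfkfb4 took 25.9% (21.5 to 30.7%) of the PFKFB counts in the control library. In the Pink1 siRNA library it took 32.1% (26.7 to 37.8%), and these intervals overlap.

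Of 13 measured genes that control glycogen turnover, 3 had ratios above 1 and 10 below, beside 51.1% of all measured genes above 1, and the median log2 ratio was -0.15. By the rule 1 gene was higher and 1 lower, beside 1.63% and 2.39% of all measured genes. The phosphorylase kinase subunit gene Phkg2 was higher by the rule, at 82 and 165 counts (2.01, 1.54 to 2.66; widened 0.945 to 4.54). Ppp1r3f, a glycogen-targeting subunit of protein phosphatase 1, was lower by it, at 97 and 31 counts (0.323, 0.206 to 0.483; widened 0.0828 to 0.982). The synthase kinase gene Gsk3b had 4497 and 3296 counts (0.733, 0.701 to 0.767; widened 0.424 to 1.253). It was low for its level, with 4 of 583 genes as low or lower.

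Of 20 regulators of glucose use, 19 were measured and none passed the rule, beside 4.02% of all measured genes. The median log2 ratio of the 19 was -0.09. Arrdc4, an arrestin-domain gene induced by sugar phosphates through MondoA, had 240 and 408 counts (1.70, 1.45 to 2.002; widened 1.07 to 2.76). Tigar, a fructose 2,6-bisphosphatase, had a ratio of 0.586 (widened 0.260 to 1.26), the insulin receptor substrate gene Irs2 had 0.601 (widened 0.275 to 1.26), and the pyruvate dehydrogenase kinase gene Pdk2 had 1.55 (widened 0.929 to 2.62). All 21 genes on branches from glycolysis were measured, with a median log2 ratio of 0.03. By the rule 1 was higher and none lower, beside 1.63% and 2.39% of all measured genes. The higher gene was Gfpt2, which opens the hexosamine branch, with 17 and 51 counts (2.94, 1.70 to 5.54; widened 0.652 to 21.6). Galt, of galactose use, had 1.70, Khk, fructokinase, 0.741, and the aldolase retrogene Aldoart1 1.36, none of them past the rule.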

How the data were processed

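RNA of 2 cultures was sequenced, 1 per siRNA. Reads were handled with Bowtie2, bedtools and bcl2fastq (2.20.0.422) on mm10, per the submitters' processing notes; annotation, strand use and multiply mapped reads are not given there. The values as deposited are raw read counts per gene symbol, read as counts because they are whole numbers with unequal totals. No molecular identifiers are named, so copies of 1 molecule cannot be separated. Counts were scaled by TMM (edgeR 4.0.16, R 4.3.3). The log2 ratio used scaled counts with 0.5 added. Counting intervals are exact conditional binomial (Clopper-Pearson, SciPy 1.17.1) at 95%. Precursor ribosomal RNA held 10.8% and 9.83% of the counts and was kept. All members were named; of each other list, up to 4 measured genes with the largest log2 ratio in size, of which 1 is not reported here. The members and lists were chosen with earlier results of these data known. The script was tested on simulated counts. Of 37 symbols looked up, 37 matched RefSeq GRCm38.p6. Overlaps and transcript ends came from GENCODE M21.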

Additional observations from a re-analysis of the deposited data

How the results depend on the processing

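Under total-count, DESeq2 (1.42.0) and upper-quartile scaling, with 5 added before the log, without the precursor ribosomal RNA row, with no filter, with a summed count of 200, without the counting interval and with the widened interval at 2-fold, 0 members passed in either direction. At a ratio of 1.5 with the counting interval, 1 member was higher and 3 lower. At a ratio 25% above 1, 3 were higher and 6 lower. With the widened interval and no fold threshold, 1 was higher. The median log2 ratio of the members ran from -0.04 with total counts to 0.04 at a summed count of 200. Total counts turned the sign of Pgk1 and Ugp2 and shifted the median of all measured genes to -0.04. The members' share of the counts was 0.171% and 0.168% without Aldoa, Pkm and Ldha, and 0.294% and 0.289% without precursor ribosomal RNA. With the Eno1b rows added, a choice made after seeing the data, Eno3 took 11.2% and 8.55% of enolase counts in place of 67.8% and 63.4%. Depth limits members under 200 counts most. No paired analysis was possible because each group has 1 library.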

Other observations

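Several tissue-restricted isoforms near the detection limit had reads in 1 library and few or none in the other, and they are given here as counts only, picked after their values were seen. Eno4, a sperm enolase, had 12 and 0 counts in the control and Pink1 siRNA libraries, and Ldhc, the testis lactate dehydrogenase, had 10 and 0. Tktl1, a transketolase-like gene, had 13 and 1. None of the 3 reached 40 counts in sum. No widened interval was computed for counts this low. Other isoforms were listed at 0 in both libraries, namely Slc2a3, Slc2a6, Hk3, Hkdc1, Pgk2, Pgam2, Pklr, Slc16a7, Slc16a8, Tktl2 and Gys2.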
